A study of Arabidopsis thaliana with 56 samples.

Results

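The transcription factors (TFs) ZAT6 and ABF1 were compared directly in root cells of Arabidopsis, with 3 libraries of cells that received ZAT6 set against 3 libraries of cells that received ABF1. These 6 libraries were all those of ZAT6 and ABF1 in batch 1, of 56 in the series, and were taken by their labels alone. The cells were protoplasts, root cells without their walls, of Col-0 seedlings aged 10 days. They had received a plasmid for ZAT6 (AT5G04340), a plasmid for ABF1 (AT1G49720) or the empty vector (EV), with n = 3 libraries each. All cells, the EV cells included, were given 35 µM cycloheximide, which blocks translation, and 10 µM dexamethasone, which lets the expressed TF enter the nucleus (the TARGET assay), and transfected cells were then sorted by fluorescence. The replicates were wells of cells from 1 transfection per TF, so the p-values measure the spread between wells and not between plants. The 3 EV libraries of batch 1 give background levels and were not part of the ZAT6 to ABF1 test.

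ABF1 is a bZIP TF of the ABF/AREB group, which binds the ABA-responsive element (ABRE, with the core ACGTG) and activates genes of the abscisic acid (ABA) response. In that pathway, ABA bound by PYR/PYL receptors inhibits clade A PP2C phosphatases, which frees SnRK2 kinases to phosphorylate ABFs. ZAT6 is a C2H2 zinc finger TF with an EAR motif, known for roles in phosphate uptake, cadmium tolerance, and the responses to cold, drought and pathogens. The comparison therefore sets a zinc finger against a bZIP activator in root cells, in the same batch and with the same treatments.

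Total counts ran from 16168864 to 23370506 in the ZAT6 libraries and from 14981620 to 29763752 in the ABF1 libraries. A group of 11 loci next to the ribosomal RNA genes took 62.4%, 70.6% and 40.7% of the counts in ZAT6 libraries 1 to 3, against 32.3%, 30.1% and 9.37% in ABF1 libraries 1 to 3, so the groups did not overlap in this share. It was 29.7%, 61.3% and 48.6% in EV. Counts at all other loci were 6077404 to 10540133 in ZAT6 and 13577409 to 20165818 in ABF1, so low genes were less deeply read in ZAT6. ABF1 libraries 1 and 2 were close (r = 0.98 across genes), and ABF1 library 3 stood apart from them (r = 0.92 and 0.917), while the ZAT6 libraries had r from 0.84 to 0.884 with each other. Levels are given as CPM (counts per 1e+06 counts, with TMM scaling over the batch).

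The transfected genes matched the labels. The ZAT6 gene had 399, 693 and 722 CPM in ZAT6 cells, against 123, 128 and 137 CPM in ABF1 cells and 131, 115 and 103 CPM in EV cells. The ABF1 gene had 4.89, 7.92 and 3.95 CPM in ZAT6 cells, against 3122, 3043 and 1887 CPM in ABF1 cells and 5.3, 6.95 and 8.31 CPM in EV cells. The mean of the ZAT6 gene in ZAT6 cells was 5.2-fold that in EV, and the mean of the ABF1 gene in ABF1 cells was 392-fold that in EV. Both genes were left out of the tests. The gene of FBH3, another TF of this batch whose wells carry the numbers of the ABF1 wells, had 8.36, 10.7 and 9.38 CPM in ZAT6 cells, against 27.3, 24.7 and 15 CPM in ABF1 cells and 12.3, 8.42 and 6.87 CPM in EV cells. It was 1594 CPM or more in the cells given FBH3, and the gene of HSFA6A, whose wells carry the numbers of the ZAT6 wells, had 16, 17 and 151 counts in ZAT6 libraries, against 6, 9 and 0 in ABF1 libraries and 1, 0 and 2 in EV libraries. The part of such cells or RNA of another TF in the results was not tested.

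In the ZAT6 cells 351 genes were higher and 473 lower than in the ABF1 cells at an FDR under 0.05 (edgeR's quasi-likelihood test with Benjamini-Hochberg adjustment). These were 1.98% and 2.67% of the 17705 genes tested, 4.65% together. The lower genes included the heat shock factor gene HSFC1, late embryogenesis abundant (LEA) genes, the ABA exporter gene ABCG25 and PP2C genes. The higher genes included the ABA importer gene ABCG40 and the response regulator gene RR3, though the RR3 call held in only 2 of 6 fits that left out a library. The median log2 fold change was 0.99 over the higher and -1.14 over the lower genes, against -0.0309 over all genes tested, and 52 genes were more than 2 log2 units higher while 93 were more than 2 log2 units lower. Among the lower genes, 15 had no count in any ZAT6 library, and 1 of the higher genes had none in any ABF1 library. With these at the bound set by 3 counts over the group, the medians were 0.99 and -1.14.

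**Figure D1:**
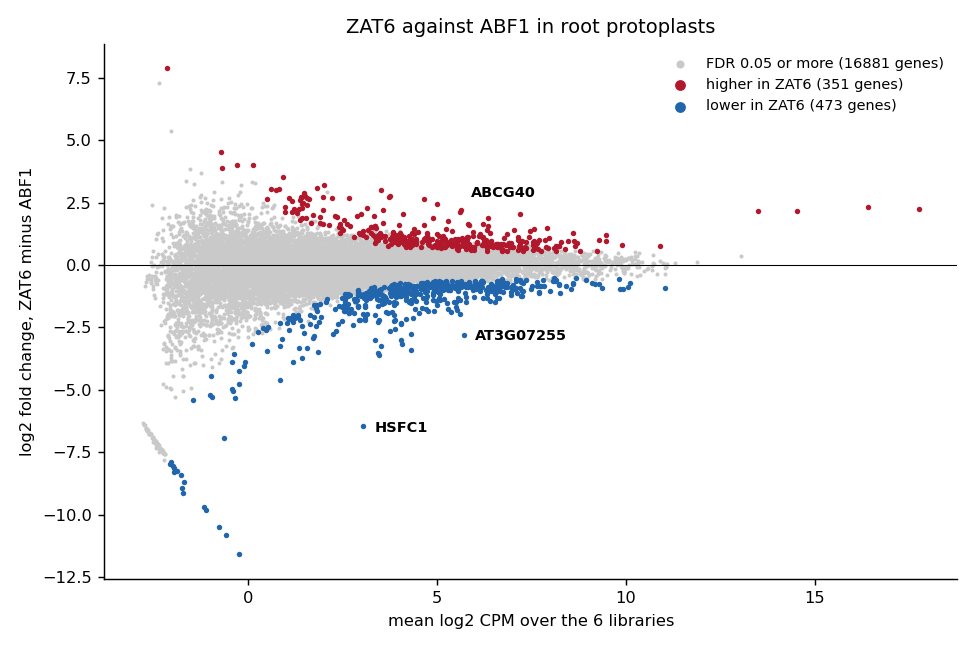
Log2 fold change (ZAT6 minus ABF1, y axis) of each of the 17705 genes tested against its mean log2 CPM over the 6 libraries (x axis). Of these, 351 points were higher and 473 lower in ZAT6 at an FDR under 0.05, HSFC1 lies far below the other lower genes of its level, and the points at the lower left edge are genes with no count in ZAT6.

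The number of calls rested on single libraries. It was 287 without ZAT6 library 2, 466 without ZAT6 library 3, 278 without ABF1 library 1 and 199 without ABF1 library 2, but 894 without ZAT6 library 1 and 784 without ABF1 library 3, the one that stood apart. Calls of named genes lost in such fits are given beside them. The higher genes included 6 of the 11 loci next to ribosomal RNA genes and 28 of the 52 tested loci that resemble organelle genes, and the lower genes included 0 of either. Organelle-like loci took 0.141%, 0.154% and 0.0528% of the other counts in ZAT6, against 0.0233%, 0.0214% and 0.0283% in ABF1. The part of RNA quality in the other calls was not tested, and with the ribosomal loci removed before library sizes were taken 819 genes were called.

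The levels in EV were set beside the calls. Of the 473 lower genes, all 3 ABF1 libraries were above all 3 EV libraries for 232, or 49%, against 8.82% of all genes tested, and all 3 ZAT6 libraries were below all EV libraries for 323, or 68.3%, against 13.7%. For 123 only ABF1 was above EV, for 214 only ZAT6 was below EV, for 109 both held, and for 27 neither. Of the 351 higher genes, all ZAT6 libraries were above all EV libraries for 275, or 78.3%, against 10.2% of all genes tested, and all ABF1 libraries were below all EV libraries for 62, or 17.7%, against 6.03%. Neither TF was apart from EV in this sense for 62 of them. These directions follow in part from the calls themselves, since a gene called between ZAT6 and ABF1 must have at least one of them away from a common level. The library names carry the letter G for ZAT6 and ABF1 and the letter R for EV, and the methods describe GFP and RFP vectors, with the EV in the RFP vector. A shift of both TFs from EV cannot be told apart from the vector.

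The 12 genes furthest below ABF1, among called genes whose average level reached 3 on the log2 CPM scale and whose groups were apart, all had ABF1 above every EV library. This position was held by 49% of all lower genes and 8.82% of all genes tested. HSFC1 (chr3:8941066-8942874), which encodes a heat shock factor of class C, was the furthest down, with 0.622, 2.47 and 0.286 CPM in ZAT6 cells, against 109, 110.4 and 60.6 CPM in ABF1 cells and 6.11, 5.82 and 4.82 CPM in EV cells (log2 fold change -6.45 ± 0.49 SE, edgeR FDR = 0.000103). Its 3 groups did not overlap, with ABF1 high and ZAT6 also under EV. The mean in ABF1 cells was 82.9-fold that in ZAT6 cells and 16.7-fold that in EV cells. HSFC1 was the only 1 of 16 heat shock factor and chaperone genes tested that was called. Over all genes tested, 2.67% were lower and 1.98% higher in ZAT6. MEE25 (chr2:14704507-14707425), annotated as an NAD(P)-binding Rossmann-fold protein, had 4.09, 4.6 and 1.72 CPM in ZAT6 cells, against 48.2, 50.5 and 27 CPM in ABF1 cells and 6.29, 6.69 and 6.15 CPM in EV cells (log2 fold change -3.62 ± 0.35 SE, edgeR FDR = 0.000257). It showed the same order, ABF1 over EV over ZAT6, as did AT4G15630, a membrane protein gene of the UPF0497 family (2.22, 4.34 and 3.55 CPM in ZAT6 cells, against 41.8, 52.1 and 25.1 CPM in ABF1 cells, log2 fold change -3.54 ± 0.31 SE, edgeR FDR = 0.000112).

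Of the 12, 3 encode LEA proteins, which accumulate in drying seeds and stressed tissues. EM6, named GEA6 in RefSeq (chr2:16779552-16780368), had 6.85, 2.47 and 3.43 CPM in ZAT6 cells, against 46.1, 55.4 and 18.9 CPM in ABF1 cells and 8.24, 6.95 and 4.26 CPM in EV cells (log2 fold change -3.24 ± 0.42 SE, edgeR FDR = 0.00154). AT3G15670 had 6.4, 9.8 and 8.01 CPM in ZAT6 cells, against 60.9, 71.8 and 34.6 CPM in ABF1 cells (log2 fold change -2.77 ± 0.27 SE, edgeR FDR = 0.000257), and AT3G02480 had 6.58, 3.66 and 2 CPM in ZAT6 cells, against 28.7, 42.5 and 24.3 CPM in ABF1 cells (log2 fold change -2.98 ± 0.37 SE, edgeR FDR = 0.00124). For each of them the highest ZAT6 library lay far under the lowest ABF1 library. BT1 (chr5:25333172-25335570), which encodes a BTB and TAZ domain scaffold protein, had 9.42, 6.22 and 4.12 CPM in ZAT6 cells, against 70.3, 86.9 and 50.9 CPM in ABF1 cells and 9.45, 8.51 and 10.8 CPM in EV cells (log2 fold change -3.40 ± 0.30 SE, edgeR FDR = 0.000112). BT1 also stood at 53.9, 34.5 and 80.3 CPM in the FBH3 cells of the batch, HSFC1 at 19.5, 16.7 and 23.8 CPM and AT3G02480 at 10.9, 6.44 and 10.7 CPM there. These 3 of the 12 genes were above every EV library in FBH3 cells too, as were 28.3% of all lower genes and 13.7% of all genes tested. Among the 38 lower genes that are one of the 12 or listed, 12 were above EV in FBH3 cells, and ABCG25 (10.1, 2.48 and 11.5 CPM) and AFP4 (209, 133 and 265 CPM) were among them.

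AT5G50360, annotated as a von Willebrand factor A domain protein, had 8.36, 5.96 and 3.95 CPM in ZAT6 cells, against 63.2, 69.9 and 31.7 CPM in ABF1 cells and 5.08, 2.43 and 3.27 CPM in EV cells (log2 fold change -3.18 ± 0.33 SE, edgeR FDR = 0.00037). Of 3 other loci listed with it by their IDs, AT3G27250, AT3G48510 and AT5G63350, none was called (log2 fold changes -1.09, -0.98 and -0.61). AT3G07255, annotated as a nuclear transport factor 2 and RNA recognition motif protein, was the most abundant of the 12, with 18.6, 21.2 and 23.8 CPM in ZAT6 cells, against 162, 191 and 95.8 CPM in ABF1 cells and 14.2, 15.7 and 16.4 CPM in EV cells (log2 fold change -2.80 ± 0.24 SE, edgeR FDR = 0.000112). Here ZAT6 was also above EV in every library, in contrast to HSFC1. AT5G01670, an NAD(P)-linked oxidoreductase gene (log2 fold change -3.0 ± 0.23 SE, edgeR FDR = 0.000103), the uncharacterized AT5G15190 (log2 fold change -2.65 ± 0.31 SE, edgeR FDR = 0.0011) and SIP2, seed imbibition 2 (log2 fold change -2.56 ± 0.22 SE, edgeR FDR = 0.000112), complete the set. ABF1 library 3 had the lowest level among the ABF1 libraries for each of the 12, and also the lowest ABF1 transcript. It also had the lowest ribosomal share (9.37%) and the fewest other counts (13577409) of them. The part of each in these levels was not tested. All 12 were called in each of the 6 fits that left out a library.

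**Figure D2:**
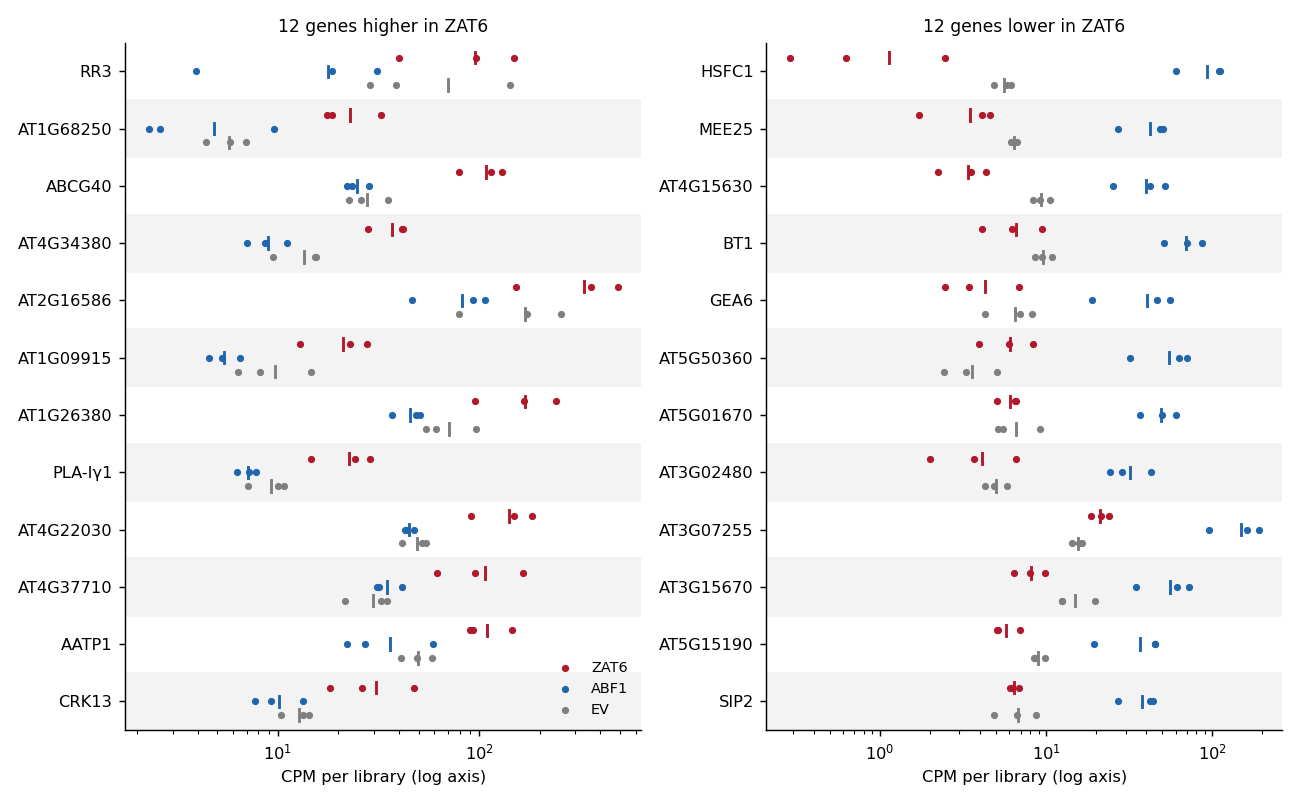
CPM in each library (points, log x axis) and group mean (ticks) for the 12 genes named in each direction, with ZAT6, ABF1 and EV drawn from top to bottom within a gene. Among the 12 lower genes every ABF1 point lies right of every EV point, and among the 12 higher genes 8 have every ZAT6 point right of every EV point.

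Upstream sequences were searched for words of the ABF1 target element. In the 500 bp upstream of the gene start, the extended ABRE word ACGTGNC, on either strand, was present in 7 of the 12 genes. It was found at 18 places, where only words with 10 bases on each side inside the window were counted. A selection is shown because it is the element that bZIP TFs of this group are known to recognise. Each is given 5′ to 3′ on the strand named, with the word in capitals and 10 bases on each side (TAIR10.1, from RefSeq), and sites of the PP2C gene HAI2, the effector gene RD29B and the exporter gene ABCG25, described below, are added.
MEE25, chr2:14707452-14707478, plus strand, 43 bases upstream: aaaagtctctACGTGGCttttacttta
EM6, chr2:16780390-16780416, minus strand, 38 bases upstream: aaagtcagacACGTGGCatgtcaccaa
EM6, chr2:16780713-16780739, plus strand, 361 bases upstream: ttgattgaatACGTGGCatcgacttta
AT5G50360, chr5:20506378-20506404, minus strand, 40 bases upstream: ttttctccaaACGTGTCgacgtaagag
AT5G50360, chr5:20506399-20506425, minus strand, 61 bases upstream: ttggtctcgcACGTGGCaaggttttct
AT3G07255, chr3:2308642-2308668, minus strand, 202 bases upstream: cacgtgttacACGTGGCgtctcggtac
AT3G15670, chr3:5311222-5311248, plus strand, 250 bases upstream: gatgcttgctACGTGGCaacaccataa
AT5G15190, chr5:4933677-4933703, plus strand, 73 bases upstream: ttactgtttgACGTGTCaaaagttttt
SIP2, chr3:21293214-21293240, minus strand, 59 bases upstream: ataatatgacACGTGGCaacatcgcaa
HAI2, chr1:2283083-2283109, plus strand, 271 bases upstream: gtggagatatACGTGGCccaatgacaa
RD29B, chr5:21236973-21236999, plus strand, 38 bases upstream: actggctgagACGTGGCaggacgaaac
RD29B, chr5:21236948-21236974, minus strand, 63 bases upstream: gttgctctctACGTGGCtatgcgacat
ABCG25, chr1:27088299-27088325, minus strand, 67 bases upstream: taatctaatgACGTGGCacccacttgc
ABCG25, chr1:27088336-27088362, plus strand, 104 bases upstream: agaaaataacACGTGGCaaaacgtata
A further EM6 site and a further SIP2 site overlap the first one printed for each gene, on the other strand, since CACGTG reads the same on both strands. HSFC1, BT1, AT4G15630, AT5G01670 and AT3G02480 had no such word in this window, which says nothing of sites elsewhere. The word was also present in 3 of the 12 genes furthest above ABF1, among them ABCG40.
ABCG40, chr1:5338434-5338460, plus strand, 124 bases upstream: cagagacggaACGTGACcaagaaataa

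Over the whole sets, ACGTGNC was present upstream of 13.4% of the 351 higher genes and 26.6% of the 473 lower genes, against 13.8% of the 17705 genes tested. It was present in 38.4% of the 232 lower genes with ABF1 above EV (95% Wilson interval 32.3% to 44.8%) and in 15.4% of the 241 others (11.3% to 20.4%). The core ACGTG, which lies within the longer word, was also most frequent in the lower genes, with 38.2% of the higher, 48.8% of the lower and 36.2% of all genes tested. So was the G-box CACGTG, which overlaps the core, with 12.3%, 20.3% and 10.4%. For both of these words the share in the higher genes was above that in all genes tested, unlike for ACGTGNC. The W-box, the element of WRKY TFs (TTGACC or TTGACT), was present in 55.8% of the higher, 60.7% of the lower and 46.5% of all genes tested, and in 66.4% of the 241 lower genes with ABF1 not above EV. The word TACAAT, which ZAT6 has been described to bind, was in 40.5% of the higher and 41.9% of the lower genes, against 38.8% of all genes tested. These shares are descriptions, and the intervals cover counting error only.

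**Figure D3:**
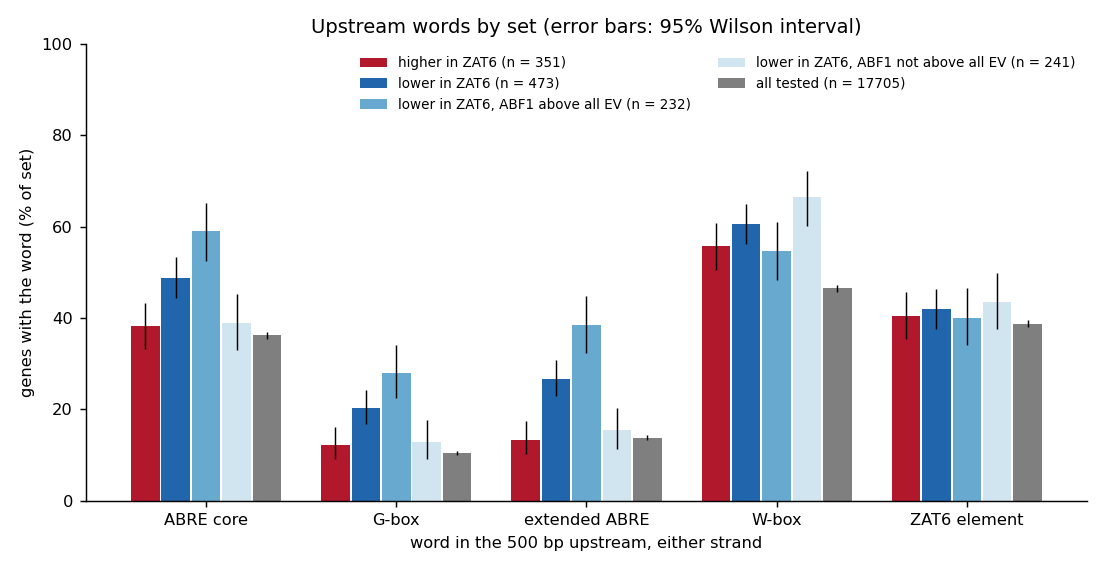
Share of genes (y axis, %) with each of 5 words in the 500 bp upstream, either strand, for 5 sets of genes, with 95% Wilson intervals. The extended ABRE word reaches 38.4% in the lower genes with ABF1 above EV and 13.8% in all genes tested, while the ZAT6 element lies between 38.8% and 43.6% in every set.

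In the ABA pathway, no receptor or kinase gene was called, while 5 of 8 phosphatase genes and some effector, breakdown and transport genes were. Differences between these roles were not tested. Of 6 PYR/PYL receptor genes tested (8 of the 14 listed were too low) and 3 SnRK2 kinase genes, 0 were called, and their log2 fold changes lay from -0.46 to 0.69 and from -0.13 to 0.13. Of the 8 clade A PP2C genes tested, 5 were lower in ZAT6 and 0 higher, against 2.67% and 1.98% of all genes, with a median log2 fold change of -1.11. ABI2, whose product inhibits SnRK2 kinases, had 12.7, 13.6 and 10.4 CPM in ZAT6 cells, against 47.2, 48 and 30.3 CPM in ABF1 cells and 22, 19.4 and 13.1 CPM in EV cells (log2 fold change -1.77 ± 0.21 SE, edgeR FDR = 0.00124). HAI1 had 33.7, 30.2 and 17.7 CPM in ZAT6 cells, against 100.2, 104 and 57.6 CPM in ABF1 cells and 36.1, 31.2 and 22.1 CPM in EV cells (log2 fold change -1.67 ± 0.27 SE, edgeR FDR = 0.00476), with ZAT6 in the range of EV. HAI2 was likewise lower (59.7, 56.6 and 33.9 CPM in ZAT6 cells, against 134, 152 and 95.5 CPM in ABF1 cells, log2 fold change -1.33 ± 0.23 SE, edgeR FDR = 0.00709).

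PP2CA was also high in ABF1 cells (97.7, 90.6 and 75.5 CPM in ZAT6 cells, against 169.5, 196 and 129 CPM in ABF1 cells and 64, 64.6 and 49.2 CPM in EV cells, log2 fold change -0.89 ± 0.18 SE, edgeR FDR = 0.0147), and here ZAT6 was above EV as well. HAI3 had 7.65, 5.54 and 5.55 CPM in ZAT6 cells, against 19.3, 17.2 and 10.6 CPM in ABF1 cells (log2 fold change -1.32 ± 0.28 SE, edgeR FDR = 0.0188). The calls of PP2CA and HAI3 held in only 2 of the 6 fits that left out a library. ABI1 (36.2, 44 and 28.2 CPM in ZAT6 cells, against 39.8, 41.3 and 34.4 CPM in ABF1 cells, log2 fold change -0.08), HAB1 (-0.33) and HAB2 (0.49) were not called, and AHG1 was too low to be tested. HAB2 was the only PP2C gene above 0, with every ZAT6 library over every ABF1 library (72, 73.6 and 63.7 CPM in ZAT6 cells, against 53.5, 55.7 and 40.6 CPM in ABF1 cells, edgeR FDR = 0.126).

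Of 17 effector genes of ABA and dehydration tested, 5 were lower in ZAT6 and 0 higher, against 2.67% and 1.98% of all genes tested. The median was -0.22. RD29B, a classic ABRE-driven reporter gene of ABA responses, had 10.1, 5.45 and 7.5 CPM in ZAT6 cells, against 33.1, 36.1 and 24 CPM in ABF1 cells and 11.4, 7.9 and 11.1 CPM in EV cells (log2 fold change -2.0 ± 0.25 SE, edgeR FDR = 0.00142). The dehydrin gene RAB18 had 18, 12.7 and 14.8 CPM in ZAT6 cells, against 60.2, 63.8 and 30.9 CPM in ABF1 cells and 27.8, 21.8 and 20.2 CPM in EV cells (log2 fold change -1.77 ± 0.26 SE, edgeR FDR = 0.0031), and the dehydrin gene ERD10 had 155, 149 and 124 CPM in ZAT6 cells, against 264, 276 and 239 CPM in ABF1 cells (log2 fold change -0.85 ± 0.15 SE, edgeR FDR = 0.00686). In both dehydrins ABF1 was above and ZAT6 below every EV library. RD26, a NAC TF gene, had 76.2, 62.4 and 56.6 CPM in ZAT6 cells, against 177, 157 and 106 CPM in ABF1 cells (log2 fold change -1.16 ± 0.20 SE, edgeR FDR = 0.00653), and EM6 is given above. The other 12 were not called, among them RD29A (66.9, 62.1 and 58.5 CPM in ZAT6 cells, against 59.9, 54.8 and 76.8 CPM in ABF1 cells), next to RD29B on the chromosome, and COR47, ERD14, KIN1 and KIN2. The log2 fold change of RD29A was -0.02 ± 0.17 SE, and whether it differed from that of RD29B was not tested. The calls of ERD10 and RD26 were each lost without 1 library (ABF1 library 2 and ZAT6 library 2).

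ABCG40 and ABCG25, ABA transporters of the plasma membrane, differed in opposite directions, and the importer gene NPF4.6 was not called (log2 fold change -0.16). ABCG40 (chr1:5331858-5338326), which imports ABA, had 79.5, 115 and 130.5 CPM in ZAT6 cells, against 28.5, 23.4 and 22.1 CPM in ABF1 cells and 22.6, 25.8 and 35.2 CPM in EV cells (log2 fold change 2.15 ± 0.20 SE, edgeR FDR = 0.00018). All 3 ZAT6 libraries were above all others, and ABF1 was within the range of EV or just under it. ABCG25 (chr1:27082394-27088248), which exports ABA, had 0, 1.62 and 1.03 CPM in ZAT6 cells, against 14.7, 15.4 and 9.59 CPM in ABF1 cells and 1.07, 0.521 and 0.665 CPM in EV cells (log2 fold change -3.86 ± 0.60 SE, edgeR FDR = 0.00417), so that the mean in ABF1 cells was 15-fold that in ZAT6 cells. Both calls held in all 6 fits that left out a library. Of the 4 ABA 8′-hydroxylase genes, whose products break down ABA, CYP707A2 and CYP707A4 were too low to be tested and the other 2 were lower in ZAT6, CYP707A1 with 68.9, 86.2 and 93.4 CPM in ZAT6 cells, against 191, 138 and 121 CPM in ABF1 cells (log2 fold change -0.84 ± 0.19 SE, edgeR FDR = 0.0234) and CYP707A3 with 106, 101 and 96.5 CPM in ZAT6 cells, against 217, 181 and 139.8 CPM in ABF1 cells (log2 fold change -0.81 ± 0.17 SE, edgeR FDR = 0.0176). For CYP707A3 the ABF1 libraries overlapped EV and ZAT6 was below it (160.0, 134 and 158 CPM in EV). These 2 calls held in 1 and 2 of the 6 fits. Synthesis genes were not called, with NCED3, the key enzyme gene of ABA synthesis under stress, at 119, 129 and 105 CPM in ZAT6 cells, against 125, 112 and 110.4 CPM in ABF1 cells. AAO3 (log2 fold change -0.63, edgeR FDR = 0.0854) had all ZAT6 libraries under all ABF1 libraries, as 14.4% of all genes did. ABA1, ABA3 and NCED9 were also below 0 (-0.65, -0.28 and -1.67). NCED2, NCED3 and ABA2 were above 0 (1.11, 0.04 and 0.20). In all, 1 of the 12 synthesis, breakdown and transport genes tested was higher and 3 were lower, against 1.98% and 2.67% of all genes tested.

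**Figure D4:**
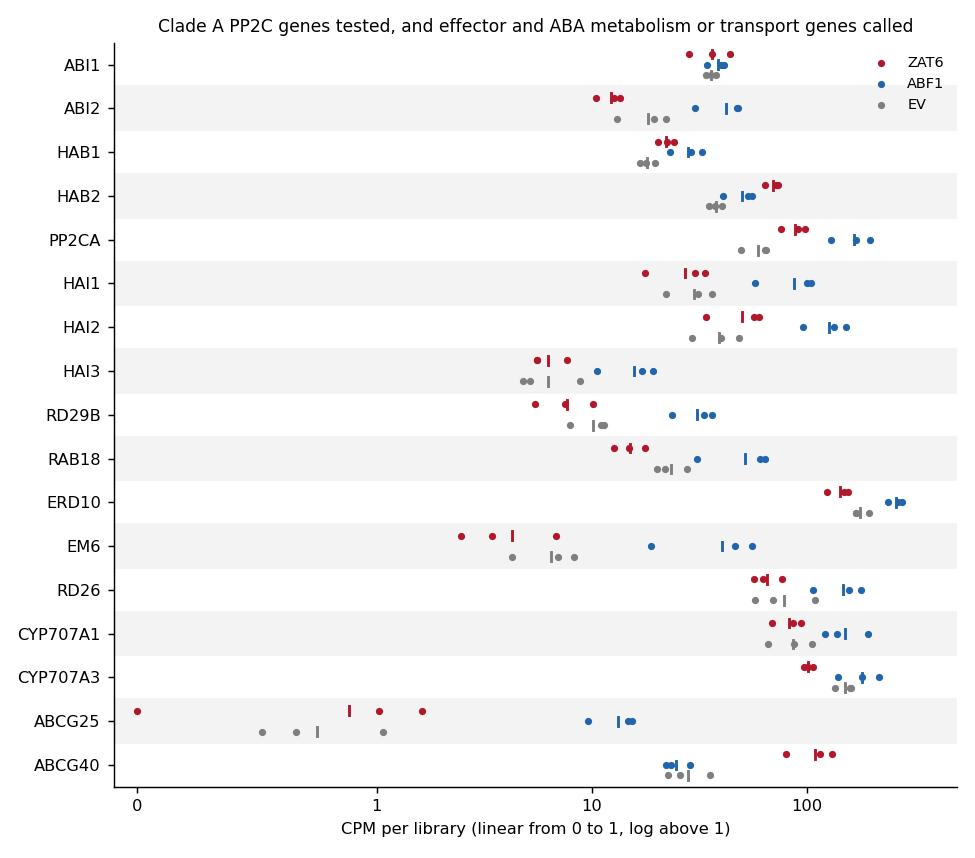
CPM per library (points; linear from 0 to 1 and log above 1) and group means (ticks) for the 8 clade A PP2C genes tested, and for the effector and the ABA metabolism or transport genes that were called, with ZAT6, ABF1 and EV from top to bottom. ABCG40 is the only one of these called genes with ZAT6 to the right of ABF1.

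Of 11 genes of other ABA-related bZIPs and AFP proteins, which are corepressors of ABI5, 3 were lower and 0 higher. The shares of all genes tested were 2.67% and 1.98%. The list median was -0.77. GBF3, a G-box binding bZIP, had 86.2, 106 and 76.5 CPM in ZAT6 cells, against 166, 179 and 115 CPM in ABF1 cells and 71.2, 64.7 and 56.5 CPM in EV cells (log2 fold change -0.77 ± 0.19 SE, edgeR FDR = 0.0378). AFP4 had 26.8, 25.6 and 25.8 CPM in ZAT6 cells, against 48, 62.8 and 47.6 CPM in ABF1 cells and 25.2, 22.2 and 17.2 CPM in EV cells (log2 fold change -1.01 ± 0.17 SE, edgeR FDR = 0.00622), and AFP2 had 4.27, 5.28 and 3.2 CPM in ZAT6 cells, against 11.6, 10 and 8.2 CPM in ABF1 cells (log2 fold change -1.22 ± 0.30 SE, edgeR FDR = 0.0375). GBF3 and AFP4 were above EV in ZAT6 cells as well, but less so than in ABF1 cells. Of the other 8, ABF2, ABF4, AFP1 and AFP3 had all ZAT6 libraries under all ABF1 libraries and did not pass the test, as 14.4% of all genes lay in that order. None of the 3 calls held in every fit that left out a library, with AFP4 lost only without ABF1 library 2. Reads of GBF3, AFP2 and RAB18 cannot be told from those of a gene that overlaps each on the opposite strand, as the kit does not mark strand. Those 3 overlapping genes were not called (log2 fold changes -0.21, -1.38 and -0.38).

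Over the ABA lists other than the receptors and kinases, 52 genes were tested, 17 were lower and 1 was higher in ZAT6, against 2.67% and 1.98% of all genes tested. The receptor and kinase lists, with 0 called of 6 and 3 genes tested, were left out of this count. The lists were chosen with earlier results of these data known, so the count describes them and is no test. Of the 17, 15 had ABF1 above every EV library, against 49% of all lower genes and 8.82% of all genes tested. ZAT6 was apart from every EV library for 6 of the 17, below it for RAB18, ERD10 and CYP707A3 and above it for PP2CA, GBF3 and AFP4, where ZAT6 was below EV for 68.3% of all lower genes. The word ACGTGNC was in the 500 bp upstream of 13 of the 17, against 26.6% of all lower genes and 13.8% of all genes tested. Its share in the other tested members of these lists was not counted. Whether the word goes with the calls within the lists was therefore not tested.

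The 12 genes furthest above ABF1 came from several roles. ABCG40, given above, had the smallest FDR of them. RR3 (chr2:17221840-17224880), a response regulator of cytokinin signalling, had the largest difference, with 96.5, 149.8 and 39.8 CPM in ZAT6 cells, against 18.5, 31 and 3.93 CPM in ABF1 cells and 28.7, 142 and 38.8 CPM in EV cells (log2 fold change 2.43 ± 0.58 SE, edgeR FDR = 0.031). EV overlapped both groups for RR3, and the call was lost with DESeq2 (FDR 0.072) and in 4 of the 6 fits that left out a library. RR3 was also high in the other libraries of the batch with a large ribosomal share, at 149 CPM in HSFA6A library 1 (66.3% of counts) and 142 CPM in EV library 2 (61.3%), against 19.8 and 21.1 CPM in HSFA6A libraries 2 and 3 (28.9% and 27.9%). AT2G16586, with 347, 95.8 and 104 CPM in HSFA6A libraries 1 to 3, and AT1G09915, with 21.2, 4.15 and 4.68 CPM there, had the same order, and the part of this share in the 3 calls was not tested. AT1G26380, an enzyme gene of the FAD-binding berberine family, had 95.4, 168 and 242 CPM in ZAT6 cells, against 36.9, 51 and 48.8 CPM in ABF1 cells and 54.6, 60.9 and 97 CPM in EV cells (log2 fold change 1.90 ± 0.28 SE, edgeR FDR = 0.00307). It was the only one of the 12 with every ABF1 library under every EV library, and its lowest ZAT6 library was within EV.

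AT4G37710, which encodes a VQ motif protein, had 61.9, 95.8 and 165 CPM in ZAT6 cells, against 31.1, 31.9 and 41.2 CPM in ABF1 cells and 32.5, 21.4 and 34.7 CPM in EV cells (log2 fold change 1.64 ± 0.29 SE, edgeR FDR = 0.00739). AT4G22030, an F-box protein gene, had 90.9, 149 and 182 CPM in ZAT6 cells, against 42.9, 43.4 and 47.6 CPM in ABF1 cells and 51.8, 41.5 and 54.2 CPM in EV cells (log2 fold change 1.67 ± 0.22 SE, edgeR FDR = 0.00169). In both, ABF1 lay near EV and ZAT6 above it. AATP1, which encodes an AAA-type ATPase, had 90.6, 93.5 and 146 CPM in ZAT6 cells, against 21.9, 27.1 and 59 CPM in ABF1 cells (log2 fold change 1.62 ± 0.33 SE, edgeR FDR = 0.0148), and CRK13, which encodes a cysteine-rich receptor-like kinase, had 18.1, 47.7 and 26.3 CPM in ZAT6 cells, against 9.2, 7.69 and 13.3 CPM in ABF1 cells (log2 fold change 1.62 ± 0.32 SE, edgeR FDR = 0.0147). These 2 calls were lost in 4 of the 6 fits that left out a library, as was that of the uncharacterized AT1G68250 (18.6, 17.5 and 32.7 CPM in ZAT6 cells, against 2.6, 2.27 and 9.59 CPM in ABF1 cells). PLA-Iγ1, a lipase gene, had 14.7, 28.8 and 24.3 CPM in ZAT6 cells, against 7.21, 6.28 and 7.79 CPM in ABF1 cells (log2 fold change 1.68 ± 0.26 SE, edgeR FDR = 0.00396) and overlaps AT1G06790 on the opposite strand, which was not called (log2 fold change -2.58).

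The other 3 were AT4G34380, a WD40 repeat protein gene (41.5, 41.8 and 27.9 CPM in ZAT6 cells, against 11.1, 8.59 and 7.01 CPM in ABF1 cells, log2 fold change 2.07 ± 0.23 SE, edgeR FDR = 0.000661), AT1G09915 (22.8, 27.6 and 12.8 CPM in ZAT6 cells, against 4.54, 6.45 and 5.29 CPM in ABF1 cells, log2 fold change 1.96 ± 0.29 SE, edgeR FDR = 0.00353) and the uncharacterized AT2G16586 (360.5, 489 and 152 CPM in ZAT6 cells, against 107, 93 and 46.1 CPM in ABF1 cells, log2 fold change 2.04 ± 0.37 SE, edgeR FDR = 0.00917). For AT2G16586 and AT1G09915, EV overlapped the ZAT6 group. Of the 12, 8 had every ZAT6 library above every EV library, against 78.3% of all higher genes and 10.2% of all genes tested. In each of the 6 fits that left out a library, 7 of the 12 were called.

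Some called genes had ZAT6, and not ABF1, apart from EV. In the list of camalexin and indole glucosinolate genes, which make sulfur-rich defence compounds of the mustard family, 3 of 12 tested were lower in ZAT6 and 0 higher. The shares of all genes tested were 2.67% and 1.98%. The list as a whole did not lie lower, since 7 of the 12 had a log2 fold change above 0 and the median was 0.10, and CYP71A12, which was not called, had every ZAT6 library above every ABF1 library (21.1, 22 and 39 CPM in ZAT6 cells, against 15.6, 14.9 and 16.4 CPM in ABF1 cells, edgeR FDR = 0.071). PAD3, the last enzyme gene of camalexin synthesis, had 16.2, 15.2 and 13.3 CPM in ZAT6 cells, against 40.7, 32.6 and 26.4 CPM in ABF1 cells and 43.1, 31.6 and 32.6 CPM in EV cells (log2 fold change -1.15 ± 0.20 SE, edgeR FDR = 0.00722). CYP83B1, a glucosinolate enzyme gene, had 49.8, 47 and 51 CPM in ZAT6 cells, against 99.1, 94.2 and 79 CPM in ABF1 cells and 104, 88.8 and 81.6 CPM in EV cells (log2 fold change -0.87 ± 0.15 SE, edgeR FDR = 0.00753), and MYB51, a TF gene that activates this pathway, had 107, 76.1 and 105 CPM in ZAT6 cells, against 165, 193 and 172 CPM in ABF1 cells and 150.5, 155 and 176 CPM in EV cells (log2 fold change -0.86 ± 0.17 SE, edgeR FDR = 0.0125). In all 3 the ABF1 libraries overlapped EV and every ZAT6 library was below both. None of the 3 calls held in every fit, as PAD3 and CYP83B1 were each lost in 1 of the 6 fits that left out a library and MYB51 in 2 of them.

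Of 10 other C2H2 zinc finger genes of the ZAT and AZF type, 2 were lower and 0 higher, against 2.67% and 1.98% of all genes tested. The median was -0.10. AZF1, of the same family as ZAT6, had 61.1, 53.9 and 58.4 CPM in ZAT6 cells, against 131, 126 and 92.6 CPM in ABF1 cells and 132, 126 and 116 CPM in EV cells (log2 fold change -1.0 ± 0.17 SE, edgeR FDR = 0.00584), again with ZAT6 alone apart from EV, and this call held in all 6 fits. The C2H2-type zinc finger gene AT2G28200 was low (0.445, 1.11 and 0.973 CPM in ZAT6 cells, against 4.66, 5.52 and 2.7 CPM in ABF1 cells, log2 fold change -2.32 ± 0.55 SE, edgeR FDR = 0.0323) and its call was lost in 4 of the 6 fits. The abundant ZAT10 (1852, 1582 and 1601 CPM in ZAT6 cells, against 2030, 2261 and 2152 CPM in ABF1 cells) and ZAT12 (1731, 1354 and 1477 CPM in ZAT6 cells, against 1508, 1784 and 1715 CPM in ABF1 cells) were not called.

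Of the 5 CBF and DREB2 genes of cold and drought responses, CBF1 (6.4, 5.88 and 1.89 CPM in ZAT6 cells, against 23.4, 20.9 and 10.5 CPM in ABF1 cells and 15.6, 11.3 and 6.65 CPM in EV cells, log2 fold change -1.96 ± 0.42 SE, edgeR FDR = 0.0191) and CBF3 (4.8, 6.73 and 2.98 CPM in ZAT6 cells, against 14.3, 13.5 and 9.14 CPM in ABF1 cells and 10.7, 8.25 and 5.82 CPM in EV cells, log2 fold change -1.35 ± 0.33 SE, edgeR FDR = 0.0361) were lower in ZAT6. The related CBF2 (20.4, 11.9 and 10.2 CPM in ZAT6 cells, against 20.4, 18.3 and 11.8 CPM in ABF1 cells) and DREB2A (116, 118 and 135 CPM in ZAT6 cells, against 99.6, 150.1 and 118 CPM in ABF1 cells) were not called. CBF1, CBF2 and CBF3 lie in tandem and are alike in sequence, so reads shared among them make the single values uncertain, and both calls were lost in 4 of the 6 fits that left out a library. Over all genes tested, 2.67% were lower in ZAT6.

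Roles described for ZAT6 in phosphate and cadmium responses were followed in 22 and 4 genes tested. Of the phosphate genes, 1 was higher and 1 lower, against 1.98% and 2.67% of all genes tested, with a median of 0.18. SPX3, a phosphate sensor of the SPX family, had 18, 22.9 and 24.1 CPM in ZAT6 cells, against 7.51, 10.9 and 11.8 CPM in ABF1 cells and 10.4, 14.4 and 11.6 CPM in EV cells (log2 fold change 1.12 ± 0.23 SE, edgeR FDR = 0.0169), and the phosphate transporter gene PHT1;4 had 50.1, 42.2 and 43.8 CPM in ZAT6 cells, against 111, 98.5 and 66.6 CPM in ABF1 cells and 76.8, 74.4 and 106 CPM in EV cells (log2 fold change -1.01 ± 0.19 SE, edgeR FDR = 0.0117). For both genes ZAT6 alone lay apart from EV. The other 20, PHR1 and PHO1 included, were not called. Of the glutathione and phytochelatin genes, GSH1, the first enzyme gene of glutathione synthesis, was lower in ZAT6 (41.2, 32.4 and 42.2 CPM in ZAT6 cells, against 87.4, 74.5 and 54.1 CPM in ABF1 cells and 51.5, 44.9 and 79.8 CPM in EV cells, log2 fold change -0.89 ± 0.19 SE, edgeR FDR = 0.0224), and GSH2, PCS1 and PCS2 were not called. The calls of SPX3, PHT1;4 and GSH1 each held in 2 of the 6 fits that left out a library.

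In the jasmonate list the calls were higher in ZAT6. Of 14 genes tested, 2 were higher in ZAT6 and 0 lower, against 1.98% and 2.67% of all genes tested. In this list 11 had a log2 fold change above 0, and the median was 0.40, against -0.0309 over all genes. JAZ2, a repressor of jasmonate signalling, had 305, 289 and 335 CPM in ZAT6 cells, against 144, 123 and 199 CPM in ABF1 cells and 188, 169 and 145 CPM in EV cells (log2 fold change 1.01 ± 0.18 SE, edgeR FDR = 0.00866), and AOS, an enzyme gene of jasmonate synthesis, had 479.6, 611 and 678 CPM in ZAT6 cells, against 357, 282 and 334 CPM in ABF1 cells and 425, 362 and 346 CPM in EV cells (log2 fold change 0.87 ± 0.16 SE, edgeR FDR = 0.00887). ZAT6 was above every EV library for both. JAZ1, JAZ5, JAZ8 and JAZ10 also had every ZAT6 library over every ABF1 library, as 10.6% of all genes did, and were not called. The calls held in 4 and 3 of the 6 fits that left out a library.

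Of 14 salicylic acid and pathogen response genes tested, PAD4, a lipase-like regulator of immunity, was higher in ZAT6 (150.3, 141 and 116 CPM in ZAT6 cells, against 75.2, 73.9 and 102 CPM in ABF1 cells and 141, 123 and 95 CPM in EV cells, log2 fold change 0.71 ± 0.18 SE, edgeR FDR = 0.0417), in 1 of the 6 fits that left out a library, and 0 were lower. EV overlapped both groups for PAD4, and 1.98% of all genes tested were higher in ZAT6. NIMIN1, which binds the salicylic acid receptor NPR1, had no count in any ZAT6 library and 95 counts over the ABF1 libraries, which is at least 14.3-fold lower in ZAT6 against a floor of 3 counts over the group, but did not pass the test (edgeR FDR = 0.0551). ICS1 and PBS3, of salicylic acid synthesis, had ABF1 library 3 far above the other ABF1 libraries (34, 34.9 and 92.8 CPM for ICS1 and 43.2, 56 and 169 CPM for PBS3), and so did SARD1, whose groups were apart (117, 115 and 127 CPM in ZAT6 cells, against 33.9, 37.8 and 96.9 CPM in ABF1 cells, edgeR FDR = 0.0778). None of these 3 was called.

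Several groups held no call or few. Of 8 defence WRKY genes, 18 ethylene synthesis and ERF genes and 6 primary wall cellulose genes tested, 0 were called, with medians of -0.13, -0.13 and -0.37. Of 9 redox genes, CAT1, a catalase (32.6, 50 and 49.6 CPM in ZAT6 cells, against 86.3, 88.9 and 67.9 CPM in ABF1 cells, log2 fold change -0.87 ± 0.19 SE, edgeR FDR = 0.0231), and CSD2, a superoxide dismutase of the chloroplast (3.91, 5.03 and 4.06 CPM in ZAT6 cells, against 11.4, 9.55 and 9.46 CPM in ABF1 cells and 11.7, 8.6 and 10.4 CPM in EV cells, log2 fold change -1.22 ± 0.27 SE, edgeR FDR = 0.0247), were lower in ZAT6, each in 2 of the 6 fits that left out a library. Over all genes tested, 2.67% were lower in ZAT6. A gene that did not pass the test here is not shown to be alike in the 2 groups.

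**Figure D5:**
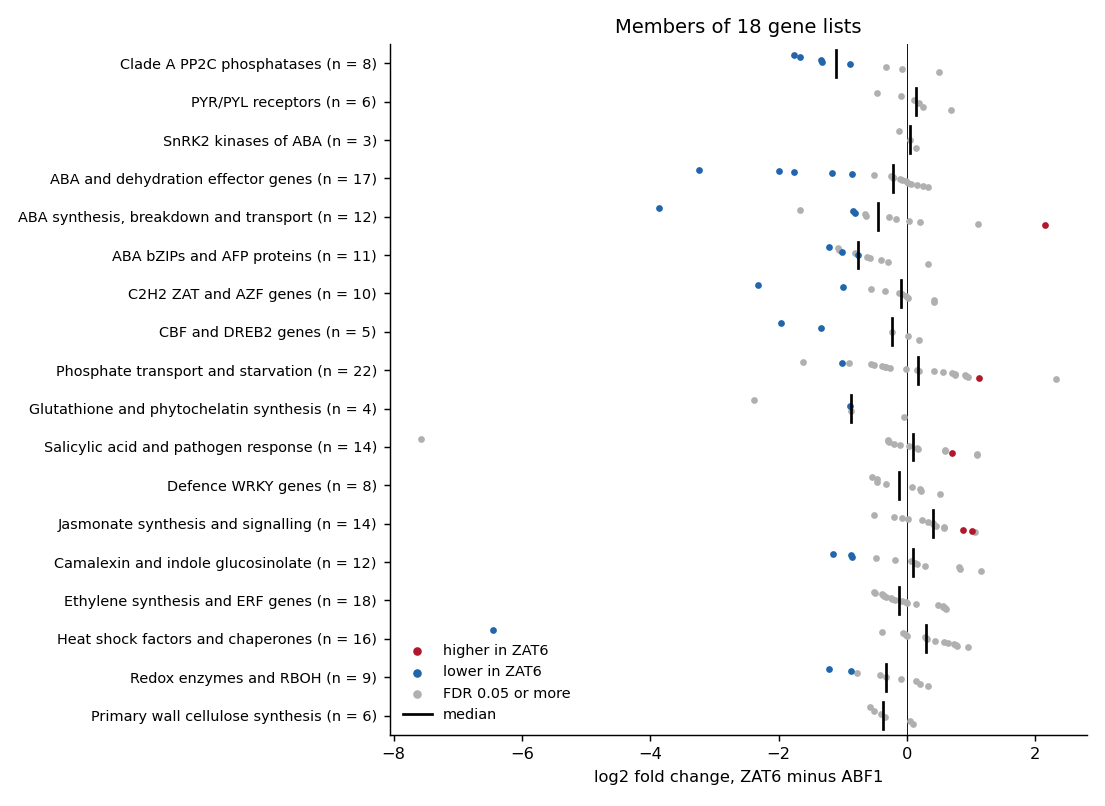
Log2 fold change (ZAT6 minus ABF1, x axis) of each gene tested in 18 lists (rows, with the number of genes tested), coloured by direction where called, and the list median as a bar. The clade A PP2C list has its median at -1.11 and the jasmonate list at 0.40, and HSFC1 lies alone at -6.45 among the heat shock genes.

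None of the 10 root epidermis, ground tissue, stele and root cap markers tested was called, against 4.65% of all genes tested. With so few genes this does not show that the groups were alike in cell makeup. Only 1 of 4 epidermis and hair markers and 2 of 3 root cap markers were tested, and EXP7, GL2 and WOX5 were too low. The summed CPM of the ground tissue markers was 24.3 to 33.6 in ZAT6 and 28.4 to 36.2 in ABF1, and that of the stele markers was 21.2 to 31.2 in ZAT6 and 19.5 to 25.8 in ABF1. The root cap markers summed to 3.07 to 4.18 CPM in ZAT6, against 6.43 to 8.28 CPM in ABF1 and 2.78 to 5.65 CPM in EV, so the TF groups did not overlap, and the epidermis and hair markers to 4.6 to 11.8 CPM in ZAT6 and 3.45 to 6.18 CPM in ABF1. Of the defining root markers, COBL9 was at 0 in all 6 libraries, as was AT1G62500. Leaf and guard cell markers summed to at most 1.25 CPM in any of the 6 libraries. In such bulk samples fewer cells of a type and less RNA per cell cannot be told apart, and the part of cell makeup in the calls was not tested.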

How the data were processed

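RNA-seq libraries of polyadenylated RNA from sorted root protoplasts, made with a kit that does not mark strand, were analysed. Per the labels and the methods of the study, the authors aligned reads to TAIR10 with HISAT2 (2.0.5) and took gene counts with GenomicAlignments and GenomicFeatures; the strand setting is not given in the sources used here. The deposited values are raw counts per gene, without normalization, for 33016 genes. The authors' own tests used DESeq2 (1.22.1). Names and coordinates came from RefSeq (TAIR10.1), in which 32783 IDs had an entry.

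Here counts were tested with edgeR (4.0.16, R 4.3.3) by the quasi-likelihood test after TMM scaling, keeping genes that passed filterByExpr at a minimum count of 10. SE is the absolute log2 fold change over the square root of F. The code was tested on simulated data. Counts of all 15 batch 1 libraries set the CPM scale, and other batches were not used. Loci within 8000 bp of 18S ribosomal RNA genes, and loci with at least 50% of their 50-base words in an organelle genome, were marked. Genes named were the 12 per direction with the largest fold change among genes called at FDR 0.05 whose average log2 CPM reached 3 and whose groups were apart, without marked loci, and any listed gene. The members and lists were chosen with earlier results of these data known. Levels in FBH3 and HSFA6A cells were looked up after the results were seen. Same-numbered ZAT6 and ABF1 libraries come from different wells. No 2 replicates were identical, and each pair differed by more than counting noise (chi-square per degree of freedom at least 12.4). Alternatives were DESeq2 (1.42.0), its size factors, no filter or a minimum count of 50, all 15 libraries in 1 model, ribosomal loci removed, a replicate block, each library left out, and 1000 bp upstream.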

Additional observations from a re-analysis of the deposited data

How the results depend on the processing

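Against 824 genes called (351 higher and 473 lower in ZAT6), DESeq2 called 1411 (688 and 723), no filter on low counts 1539 (685 and 854), and all 15 libraries in 1 model 1521, of which 1000 lower, from 23833, 23833 and 18975 genes tested; the cause was not tested. DESeq2's size factors gave 812, a minimum count of 50 gave 1031 and removal of the ribosomal loci 819. Leaving out 1 library gave 199 to 894 calls, 65 to 384 higher and 134 to 510 lower. Same-numbered libraries did not deviate together (r = -0.039, 0.023 and -0.018), and 0 of 6 correlated best with their own number. A replicate block gave 1036 calls (494 higher and 542 lower), 795 of the 824 among them. Of 702 refitted values of 54 named genes, 608 kept direction and call, 94 kept direction only and 0 reversed. RR3 alone was lost with DESeq2 (FDR 0.072), and the other 93 losses came from leaving out a library. With 1000 bp upstream the core ACGTG was present in 58.1% of the higher and 67.2% of the lower genes. The ZAT6 libraries had at most 10540133 counts outside the ribosomal loci, which limits low genes most: of the genes tested, 75 had no count in ZAT6 and 2 none in ABF1.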
